A study of Ovis aries with 24 samples.

Results

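Corticotropes are the pituitary cells that make corticotropin from the precursor protein encoded by POMC. The genes described here are POMC, TBX19, CRHR1, AVPR1B, NEUROD1 and PAX7, taken by matching the gene name of each row of the count tables. A row of that name was present for 5 of the 6 genes, out of 27054 features in all, and NEUROD1 was not analysed here. In sheep cultures POMC, TBX19 and CRHR1 stood higher in cells sorted as gonadotropes than in unsorted cells of the same replicate number, in 6 of 6 pairs with estradiol (E2) and in 6 of 6 with vehicle. Without pairing, the difference passed edgeR's test only for POMC with vehicle and for TBX19 and CRHR1 with E2. With the replicate number as a block each gene passed with either treatment, where 33.9% of all genes were higher with E2 and 32.5% with vehicle. No exact sign-flip test over pairs passed after adjustment (0.104). AVPR1B and PAX7 had too few counts to pass the filter of the test. From these few reads, each was lower in the sorted library of 3 of 6 pairs with E2 and 5 of 6 with vehicle. With E2, AVPR1B was higher in 2 of 6 pairs and PAX7 in 1 of 6, and the other pairs were equal. With vehicle each was higher in 1 of 6. No difference between E2 and vehicle passed the test for POMC, TBX19 or CRHR1.

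POMC is cut by prohormone convertases into corticotropin in corticotropes, and further into alpha-melanocyte-stimulating hormone in melanotropes of the intermediate lobe. TBX19, also called TPIT, is the T-box factor that drives POMC transcription in both lineages. NEUROD1 acts with it in corticotropes, and PAX7 selects the melanotrope identity in mice. Corticotropin-releasing hormone (CRH) and vasopressin reach the corticotrope through the receptors encoded by CRHR1 and AVPR1B, and glucocorticoids feed back on POMC through NR3C1.

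The libraries came from primary cultures of dispersed pituitaries of ovariectomized Western white faced ewes. All cultures received, 24 hours after dispersal, an adenovirus whose green fluorescent protein is expressed in gonadotropes, the cells that secrete luteinizing and follicle-stimulating hormone. After 3 days they were given estradiol or ethanol for 6 hours. The 4 groups, of 6 libraries each, were sorted cells with 10 nM E2, sorted cells with vehicle, unsorted anterior pituitary cells with 10 nM E2 and unsorted cells with vehicle. The sorted cells rest on viral expression of the marker as a sign of cell type. No label gives the age of the ewes, their number per library, or whether unsorted cells also passed the sorter. No label says that replicates came from separate cultures, so p-values measure the spread between these libraries, which may be technical.

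Total counts were 4.19 to 6.19 M reads per library in replicates 1 to 3 of each group (12 libraries) and 19.2 to 37 M reads in replicates 4 to 6 (12 libraries). These depth sets were treated as possible batches, although no label names a batch. All 5 gonadotrope markers tested (CGA, LHB, FSHB, GNRHR and NR5A1) were higher in sorted libraries with either treatment. Over all genes tested, 25.8% were higher with E2 and 24.4% with vehicle. The sorted libraries also held lactotrope RNA: PRL, the prolactin gene, stood at 57658 to 154624 counts per M reads (CPM) with E2 and 67355 to 177572 CPM with vehicle in sorted cells. It stood at 41264 to 95551 CPM with E2 and 38975 to 90378 CPM with vehicle in unsorted cells.

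POMC (ENSOARG00000018247) was the hormone gene of the set. Levels are CPM on library sizes scaled by the trimmed mean of M values. With E2, the sorted libraries ran from 160.5 over a median of 328 to 393 CPM and the unsorted ones from 78.6 over 194 to 241 CPM. With vehicle, the sorted libraries ran from 160.7 over a median of 277 to 586 CPM and the unsorted ones from 109 over 168 to 226 CPM. Sorted libraries were mostly the higher ones, but the groups overlapped in both cases, and sorted replicates 5 and 6 lay within the unsorted range. In bulk RNA a change in the number of cells of a type and a change in RNA per cell cannot be told apart.

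TBX19 (ENSOARG00000012617), the lineage factor, was counted at a few CPM. With E2, its sorted libraries ran from 4.77 over a median of 11.5 to 18.7 CPM and its unsorted ones from 3.02 over 6.68 to 7.55 CPM. With vehicle, the sorted libraries ran from 4.11 over a median of 12.5 to 15.3 CPM and the unsorted ones from 2.42 over 7.65 to 8.99 CPM. Replicates 5 and 6 were the lowest in all 4 groups, and the groups overlapped.

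CRHR1 (ENSOARG00000011170), the CRH receptor gene, was near the limit of what these depths count, with 2 to 56 reads in a library. Its E2 libraries ran from 1.24 over a median of 1.77 to 2.78 CPM when sorted and from 0.343 over 1.10 to 1.504 CPM when unsorted. Its vehicle libraries ran from 1.01 over a median of 1.83 to 4.27 CPM when sorted and from 0.425 over 0.997 to 2.26 CPM when unsorted. These groups overlapped as well.

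**Figure D1:**
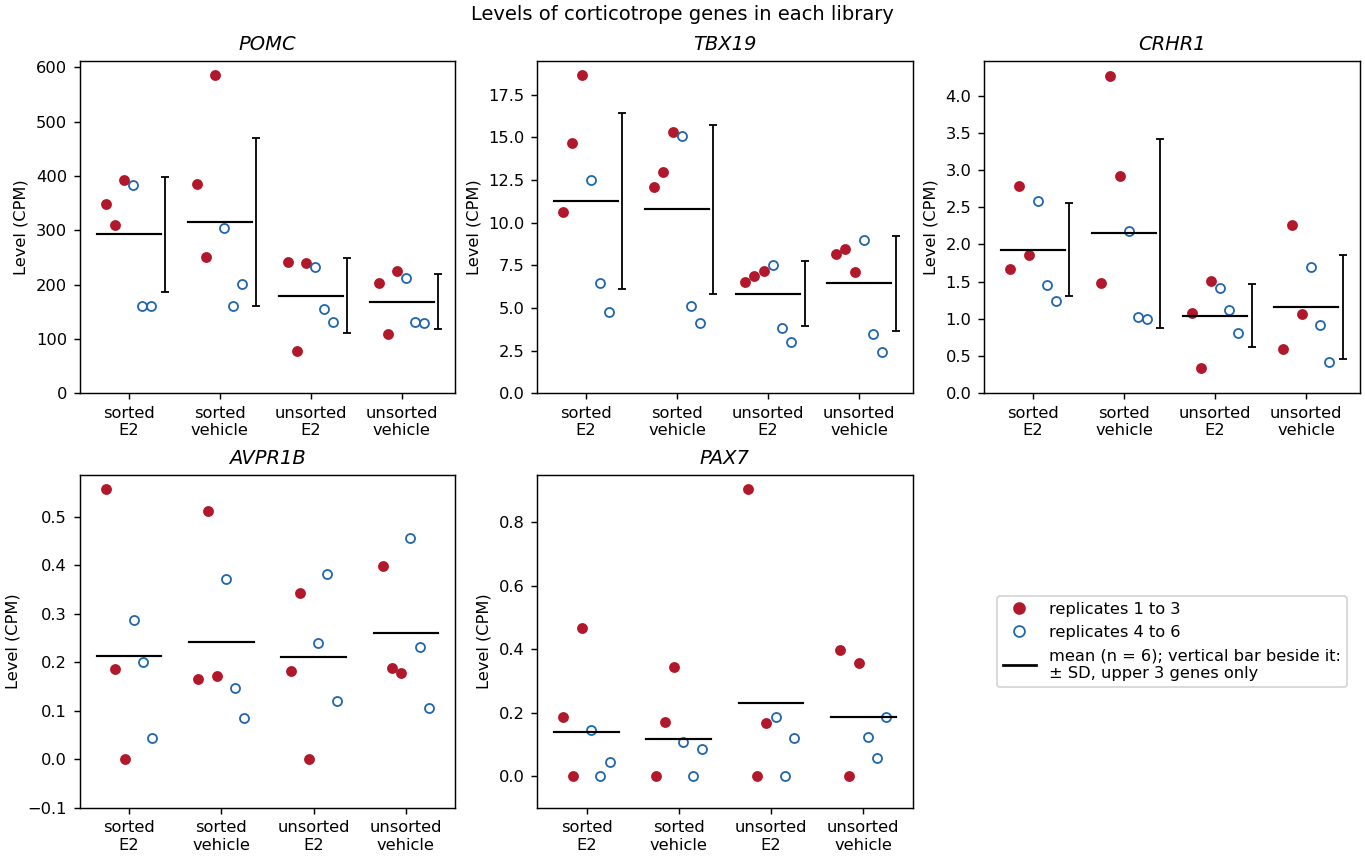
Levels in CPM of the 5 corticotrope genes with a row in the count tables, 1 point per library, in sorted and unsorted cells with E2 or vehicle. Filled points are replicates 1 to 3 and open points replicates 4 to 6, lines are means of 6 libraries, and bars show ± SD for the upper 3 genes. For POMC, TBX19 and CRHR1 both sorted means lie above both unsorted means, and the points of the groups overlap.

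AVPR1B (ENSOARG00000005069), the pituitary vasopressin receptor gene, had at most 15 reads in any library. Summed over 6 libraries it had 15 reads in sorted E2, 17 in sorted vehicle, 28 in unsorted E2 and 31 in unsorted vehicle cells. Read sums are not scaled for depth, which was greater in the unsorted libraries of replicates 4 to 6. Mean AVPR1B levels in these groups were 0.212, 0.242, 0.211 and 0.260 CPM. PAX7 (ENSOARG00000010587) had at most 7 reads in a library, with 7 reads in sorted E2, 7 in sorted vehicle, 17 in unsorted E2 and 17 in unsorted vehicle cells. It had 0 reads in 2 of 6 libraries of each of the first 3 groups and in 1 of 6 unsorted vehicle libraries. Mean PAX7 levels were 0.140, 0.117, 0.230 and 0.187 CPM in the same order. Neither gene passed the filter on low counts in any comparison, so neither was tested in those fits. The few reads limit what size of difference could be seen. Without the filter, AVPR1B was 0.19 lower in sorted cells with E2 on the log2 scale (95% interval -1.51 to 1.13) and 0.21 lower with vehicle (-1.36 to 0.95). For PAX7 the same differences were -0.75 (-2.85 to 1.35) and -0.68 (-2.31 to 0.95). None of these passed edgeR's test.

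The first comparison asks what the sort for gonadotropes did to corticotrope RNA. With vehicle, POMC averaged 315 ± 155 CPM in sorted and 169 ± 50.8 CPM in unsorted cells (SD, n = 6 each). The fitted log2 difference was 0.90 ± 0.30 (SE), which passed edgeR's quasi-likelihood test with Benjamini-Hochberg adjustment over all genes (adjusted p = 0.025). With the replicate number as a block it was 0.81 ± 0.15 (adjusted p = 0.0010). The call without the block was lost without replicate 3 of the sorted vehicle cells or replicate 2, 5 or 6 of the unsorted ones (adjusted p up to 0.057, with a difference of 0.62 without sorted replicate 3), and no call was lost in 6 paired fits that each left out 1 number (adjusted p up to 0.0035).

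TBX19 with vehicle averaged 10.8 ± 4.94 CPM in sorted and 6.44 ± 2.79 CPM in unsorted cells. Its log2 difference of 0.76 ± 0.40 did not pass the edgeR test without the block (adjusted p = 0.13), and passed with it at 0.72 ± 0.13 (adjusted p = 0.00049). CRHR1 averaged 2.15 ± 1.27 CPM in sorted and 1.16 ± 0.695 CPM in unsorted cells, with a log2 difference of 0.86 ± 0.47 (edgeR, adjusted p = 0.15) and of 0.78 ± 0.26 with the block (adjusted p = 0.023). The CRHR1 call with the block was lost without replicate 2, 3 or 6 (adjusted p up to 0.073), in 3 of the 5 such fits in which the gene passed the filter. Of the 3 genes that passed the filter, 1 was called higher without the block, where 24.4% of all genes tested were called higher, and 3 with it, where 32.5% were.

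With E2 the same comparison gave differences of like size. POMC averaged 293 ± 106 CPM in sorted and 179.9 ± 68.6 CPM in unsorted cells. Its log2 difference of 0.69 ± 0.30 did not pass without the block (edgeR, adjusted p = 0.070) and was 0.69 ± 0.24 with it (adjusted p = 0.043). That call was lost in 4 of 6 fits that left out a number (replicate 1, 3, 4 or 6, adjusted p up to 0.12), and without the block one was gained when sorted E2 replicate 5 or 6 was left out (adjusted p = 0.033). TBX19 averaged 11.3 ± 5.16 CPM in sorted and 5.83 ± 1.90 CPM in unsorted cells, and it was higher by 0.94 ± 0.34 (adjusted p = 0.031) and, with the block, by 0.86 ± 0.13 (adjusted p = 0.00024).

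The TBX19 call without the block was lost without sorted E2 replicate 2, 3 or 4 or unsorted E2 replicate 5 or 6 (adjusted p up to 0.077), and the one with the block was kept in 6 of 6 fits. CRHR1 averaged 1.93 ± 0.621 CPM in sorted and 1.05 ± 0.424 CPM in unsorted cells, and it was higher by 0.83 ± 0.32 (edgeR, adjusted p = 0.045). Its call was lost in 5 of the 6 fits with 1 library left out in which the gene passed the filter (sorted E2 replicate 1, 2 or 3, or unsorted E2 replicate 1 or 2, adjusted p up to 0.10). With the block, where the difference was 0.79 ± 0.30 (adjusted p = 0.037), it was lost in 2 of 3 (replicate 1 or 2, adjusted p up to 0.060). Of the 3 genes tested, 2 were called higher without the block and 3 with it, against 25.8% and 33.9% of all genes.

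Libraries of the same replicate number were also compared 1 by 1. Sorted minus unsorted differences of log2(CPM + 0.1) ran from 0.046 to 1.97 with E2 and from 0.28 to 1.37 with vehicle for POMC. They ran from 0.64 to 1.36 with E2 and from 0.54 to 1.09 with vehicle for TBX19. For CRHR1 they ran from 0.29 to 2.70 with E2 and from 0.14 to 1.37 with vehicle. Every one of these 36 differences was above 0, although the groups overlapped when replicate numbers were ignored. An exact 2-sided sign-flip test over 6 pairs gave p = 0.0312 for each of the 6, the smallest value it can give, and 0.104 after adjustment over 20 tests of 5 genes in 4 comparisons. Exact permutation tests without pairing gave p = 0.0758 with E2 and 0.0303 with vehicle for POMC, 0.0433 and 0.152 for TBX19, and 0.0130 and 0.108 for CRHR1, none of which passed after adjustment (0.260 to 0.507). From few reads, AVPR1B was higher in the sorted library of 2 and lower in 3 of 6 pairs with E2. PAX7 was higher in 1 and lower in 3 of these. With vehicle each was higher in 1 and lower in 5 of 6 pairs.

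**Figure D2:**
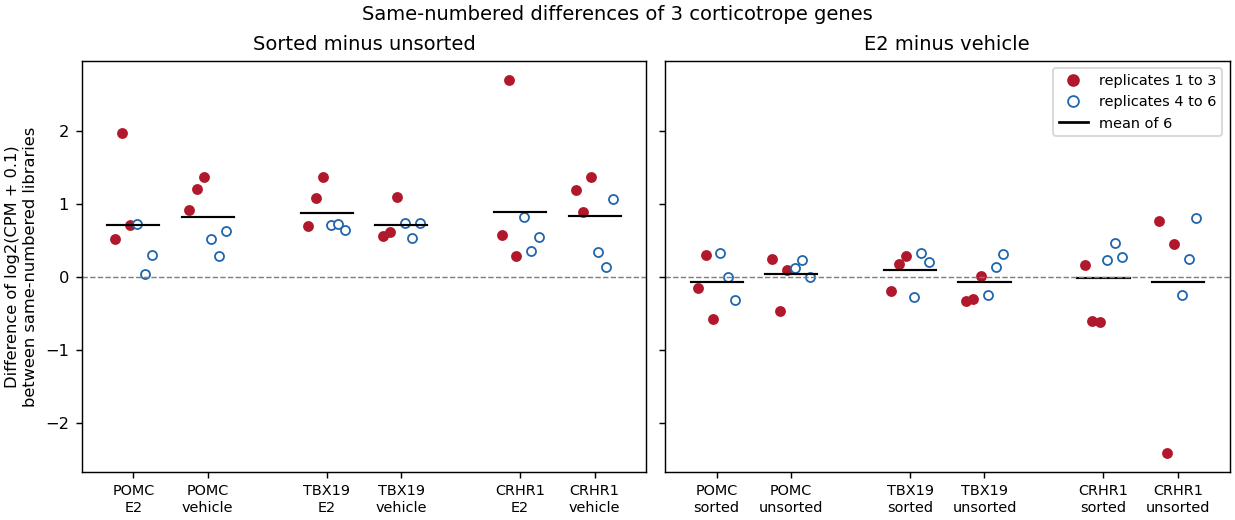
Differences of log2(CPM + 0.1) between libraries of the same replicate number for POMC, TBX19 and CRHR1, sorted minus unsorted at left (E2, then vehicle) and E2 minus vehicle at right (sorted, then unsorted cells). Filled points are replicates 1 to 3, open points replicates 4 to 6 and lines means of 6 pairs. All points at left lie above 0, and those at right lie on both sides of it.

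POMC differed between the depth sets in the size of the sort difference. In replicates 1 to 3 it averaged 407 ± 169 CPM in sorted and 179.5 ± 62.3 CPM in unsorted vehicle cells (n = 3 each), and in replicates 4 to 6 it averaged 222 ± 74.1 and 158 ± 47.2 CPM. The blocked log2 difference was 1.17 in replicates 1 to 3 and 0.46 in replicates 4 to 6 (adjusted p = 1.7e-07 and 0.00092). Without the block neither set passed alone (1.19 with adjusted p = 0.063, and 0.47 with adjusted p = 0.20). The difference of the 2 sort effects was 0.74 ± 0.14 (adjusted p = 0.0035, edgeR with the block), a test added after seeing the data that called 1494 of 14468 genes.

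With E2 the POMC difference between the sets was 0.70 ± 0.33 and did not pass (adjusted p = 0.26), with blocked sort differences of 1.05 in replicates 1 to 3 (adjusted p = 0.031) and 0.32 in replicates 4 to 6 (adjusted p = 0.053). For TBX19 with vehicle the blocked sort difference was 0.77 in replicates 1 to 3 and 0.67 in replicates 4 to 6 (adjusted p = 0.0044 and 0.0031), and with E2 it was 1.08 and 0.67 (adjusted p = 0.00049 and 0.0052). CRHR1 was 1.16 and 0.51 higher with vehicle (adjusted p = 0.020 and 0.18). With E2 it was 0.59 higher in replicates 4 to 6 (adjusted p = 0.070) and fell under the filter in replicates 1 to 3. The set differences of TBX19 and CRHR1 did not pass with E2 or with vehicle (adjusted p = 0.41 to 0.81).

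**Figure D3:**
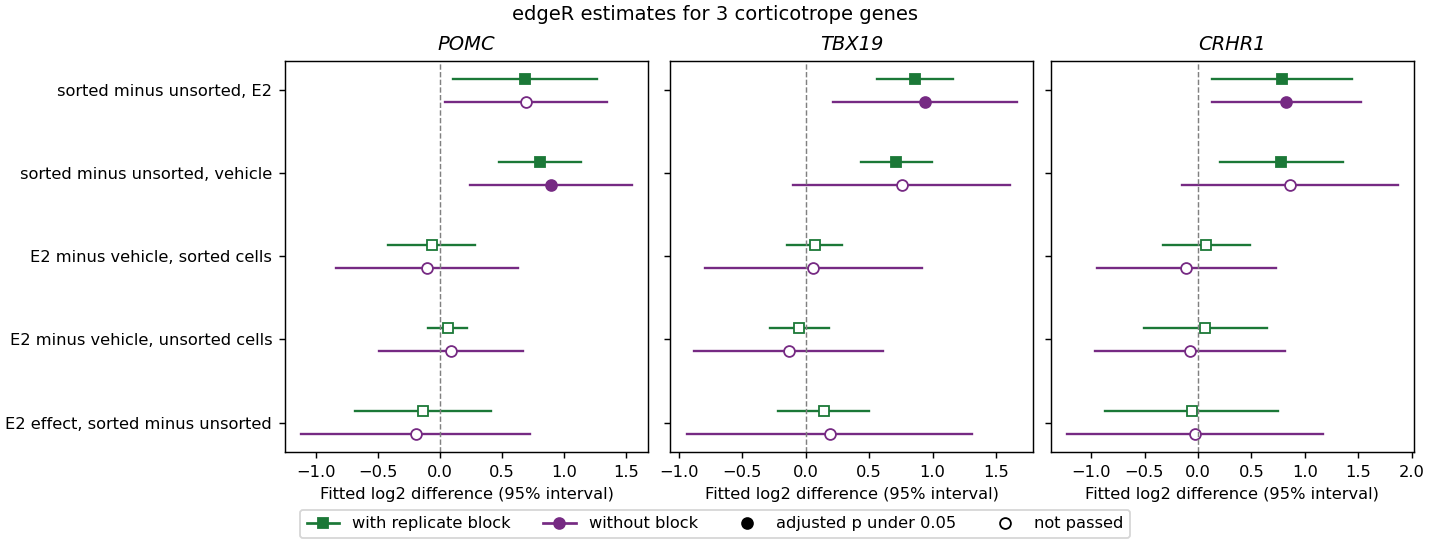
Fitted log2 differences with 95% intervals from edgeR for POMC, TBX19 and CRHR1 in 5 comparisons. Squares are fits with the replicate number as a block, circles fits without it, and filled symbols passed an adjusted p of 0.05. Every interval of the blocked sort comparisons lies above 0 and every interval of the E2 comparisons includes 0.

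Levels of markers of the other cells of the gland are set beside these genes. The summed level of 5 lactotrope and somatotrope genes, all with a feature, ran from 66670 to 186516 CPM in sorted E2 and 76619 to 206281 CPM in sorted vehicle cells, against 46562 to 138463 CPM in unsorted E2 and 44603 to 116119 CPM in unsorted vehicle cells. The 3 thyrotrope genes summed to 229 to 1046 CPM in sorted E2 and 299 to 1242 CPM in sorted vehicle cells, against 219.5 to 452 CPM in unsorted E2 and 164 to 385 CPM in unsorted vehicle cells. The 8 fibroblast and pericyte genes summed to 718 to 1701 CPM in sorted E2 and 652 to 1393 CPM in sorted vehicle cells, against 4134 to 8707 CPM in unsorted E2 and 3591 to 9243 CPM in unsorted vehicle cells. The 8 folliculostellate and stem cell genes summed to 1975 to 2638 CPM in sorted E2 and 2187 to 2940 CPM in sorted vehicle cells, against 4410 to 5960 CPM in unsorted E2 and 4743 to 6109 CPM in unsorted vehicle cells. In the sort comparison without the block, 25.8% of all genes tested were higher and 26% lower in sorted cells with E2. With vehicle these shares were 24.4% and 25.8%. Against these shares, 3 of 4 lactotrope and somatotrope genes tested were higher in sorted cells with either treatment. Of the 3 thyrotrope genes 0 were higher in sorted E2 cells and 2 in sorted vehicle cells, with none of either list lower. Of 8 fibroblast and pericyte genes 5 were lower in sorted cells among E2 libraries and 5 among vehicle libraries. DCN, a matrix proteoglycan gene, was 0.79 ± 0.34 higher in sorted than in unsorted E2 cells (edgeR, adjusted p = 0.062). Between sorted and unsorted vehicle cells it was higher by 0.93 ± 0.34 (adjusted p = 0.037). Of 7 folliculostellate and stem cell genes tested 5 were lower in sorted cells with either treatment, and 2 were higher. S100B, a folliculostellate marker, was higher by 0.60 ± 0.17 among E2 libraries and 0.69 ± 0.20 among vehicle libraries. ALDH1A1, a retinoic acid enzyme gene, was higher by 0.47 ± 0.12 and 0.58 ± 0.12. DCN, S100B and ALDH1A1, named after their values were seen, were higher in the sorted library of 6 of 6 pairs with either treatment. No marker of these 4 lists was at 0 in every library of a group. Their part in the corticotrope differences was not tested.

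Ratios within a library do not depend on the scaling between libraries. Relative to PRL, the log2 read ratio of POMC differed between sorted and unsorted cells by 0.090 with E2 and by -0.021 with vehicle. For TBX19 the ratio to PRL differed by 0.26 with E2 and by -0.12 with vehicle, and for CRHR1 by 0.29 and 0.024. An exact permutation test gave adjusted p = 0.952 for each of these, over 24 ratio tests. With E2, TBX19 over PRL was higher in the sorted library of 6 of 6 pairs, by 0.084 to 0.57 (exact sign-flip adjusted p = 0.125).

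Relative to TSHB, the thyrotropin subunit gene, POMC differed by -0.052 with E2 and -0.37 with vehicle, TBX19 by 0.11 and -0.47, and CRHR1 by 0.15 and -0.33 (exact permutation adjusted p = 0.952 for each). Against CGA, the subunit shared by gonadotropins and thyrotropin, all 3 genes had lower ratios in sorted cells. The sort was for gonadotropes, and CGA was itself higher in the sorted library of 6 of 6 pairs with either treatment. A lower ratio to CGA was therefore largely fixed beforehand, and its tests add no evidence about the 3 genes. POMC over CGA was 1.97 lower in sorted cells with E2 and 2.00 lower with vehicle on the log2 scale, lower in 6 of 6 pairs each time (exact permutation adjusted p = 0.0346 for both, exact sign-flip adjusted p = 0.125 for both). TBX19 over CGA was 1.80 lower with E2 (adjusted p = 0.0624) and 2.10 lower with vehicle (adjusted p = 0.0520, exact permutation), also in 6 of 6 pairs. CRHR1 over CGA was 1.77 lower with E2 (exact permutation adjusted p = 0.0346), in 5 of 6 pairs, and 1.95 lower with vehicle (adjusted p = 0.0780), in 6 of 6. Paired by replicate number, none of the 6 ratios to CGA passed the exact sign-flip test after adjustment (0.125 for each ratio lower in 6 of 6 pairs and 0.214 for CRHR1 over CGA with E2).

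Ratios among the corticotrope genes themselves were also compared. POMC over TBX19 differed by -0.17 with E2 and 0.10 with vehicle, POMC over CRHR1 by -0.20 and -0.045, and TBX19 over CRHR1 by -0.038 and -0.14, none of which passed (exact permutation adjusted p = 0.952). The spread of these ratio differences over pairs, an SD of 0.33 to 0.90, limits what size of difference could be seen.

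**Figure D4:**
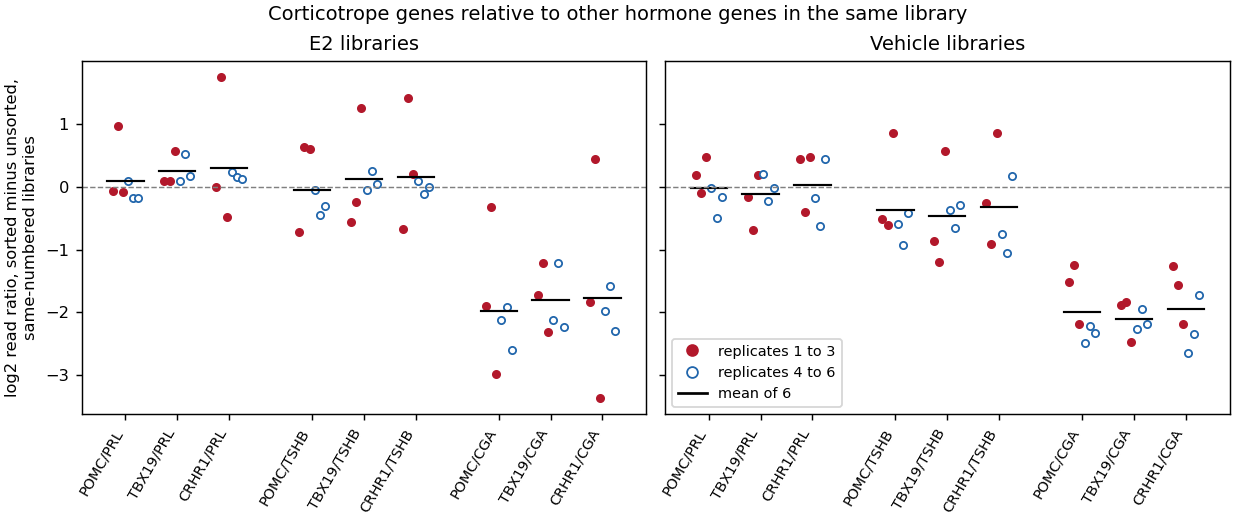
Sorted minus unsorted differences of log2 read ratios within libraries of the same replicate number, for POMC, TBX19 and CRHR1 over PRL, TSHB and CGA, in E2 libraries (left) and vehicle libraries (right). Points are pairs (filled, replicates 1 to 3, and open, replicates 4 to 6) and lines means of 6. Points of TBX19 over PRL with E2 all lie above 0, points of the other ratios to PRL and TSHB lie on both sides of it, and ratios to CGA average between -2.10 and -1.77.

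The second comparison asks whether 6 hours of E2 changed corticotrope RNA. In sorted cells the log2 difference between E2 and vehicle was -0.10 for POMC (95% interval -0.84 to 0.63), 0.059 for TBX19 (-0.80 to 0.91) and -0.11 for CRHR1 (-0.95 to 0.73). With the replicate block the intervals narrowed to -0.41 to 0.28 for POMC, -0.15 to 0.29 for TBX19 and -0.33 to 0.49 for CRHR1. None of the 3 genes was called with or without the block, or by DESeq2, and none had an unadjusted edgeR p under 0.05 (lowest 0.504). Over all genes tested, 1.37% were called without the block and 13.2% with it.

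In unsorted cells the differences were 0.090 for POMC (95% interval -0.49 to 0.67), -0.13 for TBX19 (-0.88 to 0.61) and -0.076 for CRHR1 (-0.97 to 0.82). The blocked intervals were -0.10 to 0.22 for POMC, -0.28 to 0.18 for TBX19 and -0.50 to 0.64 for CRHR1. None was called by either tool, and the lowest unadjusted edgeR p was 0.402, while 0.245% of all genes were called without the block and 5.24% with it. The blocked POMC interval leaves room for a rise of 0.22 or a fall of 0.10 on the log2 scale. The wider CRHR1 intervals go with its low counts. Sign differed between pairs: E2 was above vehicle in 2 of 6 sorted and 5 of 6 unsorted pairs for POMC, 4 of 6 and 3 of 6 for TBX19, and 4 of 6 and 4 of 6 for CRHR1.

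The E2 effect in sorted minus that in unsorted cells was -0.20 for POMC (95% interval -1.12 to 0.73), 0.19 for TBX19 (-0.94 to 1.31) and -0.025 for CRHR1 (-1.22 to 1.17). None passed edgeR's interaction test with or without the block (lowest unadjusted p 0.418). That test called 0.0264% of all genes without the block and 0.463% with it. By mean, POMC and CRHR1 were highest in sorted vehicle cells, followed by sorted E2 cells, and TBX19 was highest in sorted E2 cells, followed by sorted vehicle cells. The lowest mean was that of unsorted vehicle cells for POMC and of unsorted E2 cells for TBX19 and CRHR1. In each case the neighbours that share a sort state did not differ beyond their spread.

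Lists of genes around POMC were first compared between sorted and unsorted cells of the same treatment. Counts are read against the share of all genes called in the same fit. Among E2 libraries 25.8% of genes were higher and 26% lower in sorted than in unsorted cells. Among vehicle libraries these shares were 24.4% and 25.8%. Of 10 genes that process POMC and load the secretory granule, 7 were higher and 1 lower in sorted cells, among E2 and vehicle libraries alike. The median sorted minus unsorted log2 difference was 0.91 with E2 and 0.92 with vehicle, against 0.014 and 0.016 over all genes. PCSK1, the convertase that releases corticotropin, averaged 104 ± 35.02 CPM in the sorted E2 libraries, against 13.8 ± 2.93 CPM in the unsorted ones, and with vehicle 121 ± 48.8 CPM when sorted, against 17.1 ± 3.60 CPM when unsorted. PCSK1 was higher in sorted cells by 2.92 ± 0.23 among E2 libraries (edgeR, adjusted p = 8.7e-07) and 2.81 ± 0.27 among vehicle libraries (adjusted p = 1.7e-06). Its sorted and unsorted groups did not overlap. CPE, which trims the cut peptides, was higher in sorted cells by 0.98 ± 0.10 and 1.00 ± 0.09. SCG2 and SCG5, a granin and the chaperone of the second convertase, were higher in sorted cells. The differences were 1.304 ± 0.13 and 0.97 ± 0.11 among E2 libraries, and 1.49 ± 0.14 and 1.08 ± 0.11 among vehicle libraries. The gene lower in sorted cells was CTSL, a cathepsin, named after its values were seen. Its difference was -0.927 ± 0.20 among E2 and -0.935 ± 0.20 among vehicle libraries. These genes serve other endocrine cells as well.

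Among regulators of POMC transcription, 5 of the 12 tested were higher and 1 lower in sorted than in unsorted E2 cells. Between sorted and unsorted vehicle cells 5 were higher and none lower. The share called in either direction was no higher than over all genes (51.8% with E2 and 50.2% with vehicle). The median sorted minus unsorted difference was 0.21 among E2 and 0.40 among vehicle libraries. NR4A1, the orphan receptor through which CRH signals reach POMC, was higher in sorted cells. Its difference was 1.26 ± 0.25 among E2 libraries (edgeR, adjusted p = 0.00095) and 1.502 ± 0.22 among vehicle libraries (adjusted p = 8.4e-05). Its relative NR4A3 was higher in sorted cells by 1.16 ± 0.26 and 1.37 ± 0.34, and the ETS factor gene ETV1 by 0.42 ± 0.12 and 0.74 ± 0.11. PITX1, a homeodomain partner of TBX19, was -0.51 ± 0.24 in sorted minus unsorted cells with E2 (adjusted p = 0.087) and -0.32 ± 0.22 with vehicle (adjusted p = 0.24), and passed only with the block and E2, at -0.49 ± 0.09 (adjusted p = 0.00076).

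Of the CRH and vasopressin signalling list 4 of 14 genes could be tested between sorted and unsorted E2 cells. Of these 2 were higher and 1 lower in sorted cells. With vehicle 5 could be tested, of which 2 were higher and 2 lower in sorted cells. These are too few to set against the share over all genes. The differences below are sorted minus unsorted, for E2 and then vehicle libraries. GNAS, the stimulatory G protein subunit below the CRH receptor, was higher by 0.73 ± 0.15 and 0.80 ± 0.13. CRHBP, the binding protein that sequesters CRH, was lower by 2.91 in sorted vehicle cells (SE 0.37, edgeR adjusted p = 1.8e-05). GNAQ, of the subunit family that vasopressin receptors use, was lower by 0.51 and 0.44. RGS4, a regulator of G protein signalling, was higher by 1.05 ± 0.22 and 1.21 ± 0.22.

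Of 9 cytokine and growth factor genes that act on corticotropes, 5 were lower in sorted than in unsorted cells with either treatment. None was higher and 4 did not pass, where 26% of all genes were lower among E2 and 25.8% among vehicle libraries. With the block 1 was higher in sorted cells among E2 libraries. The list had a median sorted minus unsorted difference of -0.66 with E2 and -0.73 with vehicle. BMP4 was lower in sorted cells by 2.05 among E2 and 2.09 among vehicle libraries. In the same order OSMR was lower by 1.74 and 1.72, LIF by 2.75 and 2.96, and EGFR by 0.66 and 0.73 (edgeR, adjusted p = 1.4e-05 to 0.0031 for the 4 genes). The fibroblast and folliculostellate sums given above were also lower in sorted cells, though not S100B, ALDH1A1 or DCN of those lists, and their part was not tested.

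Of 8 genes of glucocorticoid feedback tested, 3 were higher and 2 lower in sorted than in unsorted E2 cells. Between sorted and unsorted vehicle cells 4 were higher and 2 lower. Over all genes 51.8% and 50.2% were called in either direction. NR3C1, which encodes the glucocorticoid receptor, averaged 164 ± 12.5 CPM in the sorted E2 libraries, against 102 ± 11.7 CPM in the unsorted ones, and with vehicle 129 ± 13.1 CPM when sorted, against 91.7 ± 12.9 CPM when unsorted. NR3C1 was higher in sorted cells by 0.68 ± 0.09 among E2 libraries (edgeR, adjusted p = 4.1e-05) and 0.49 ± 0.10 among vehicle libraries (adjusted p = 0.0014). HSD11B1, which regenerates active glucocorticoid, was lower in sorted cells by 2.09 and 2.13. ANXA1, a glucocorticoid-induced mediator of folliculostellate cells in rodents, was lower by 1.89 and 1.87.

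Of the inhibitory receptor genes, 4 of 7 tested were higher in sorted cells among E2 libraries and 5 of 6 among vehicle libraries. None was lower without the block, where 25.8% and 24.4% of all genes were higher. SSTR3, a somatostatin receptor gene, was higher in sorted cells by 2.28 ± 0.35 among E2 and 2.22 ± 0.42 among vehicle libraries. In the same order GABBR1, a subunit of the GABA-B receptor, was higher by 0.99 ± 0.16 and 0.69 ± 0.18. SSTR5 was higher by 1.16 ± 0.37 and 0.86 ± 0.27. With the block GABBR2 was lower in sorted cells in both (-0.92 ± 0.25 and -0.77 ± 0.29). Of the melanocortin list ASIP, an antagonist of melanocortin receptors, was lower in sorted cells by 1.29 and 1.21 (edgeR, adjusted p = 0.00065 and 0.0018). Of the 9 genes of that list, 2 passed the count filter with E2 and 1 with vehicle.

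**Figure D5:**
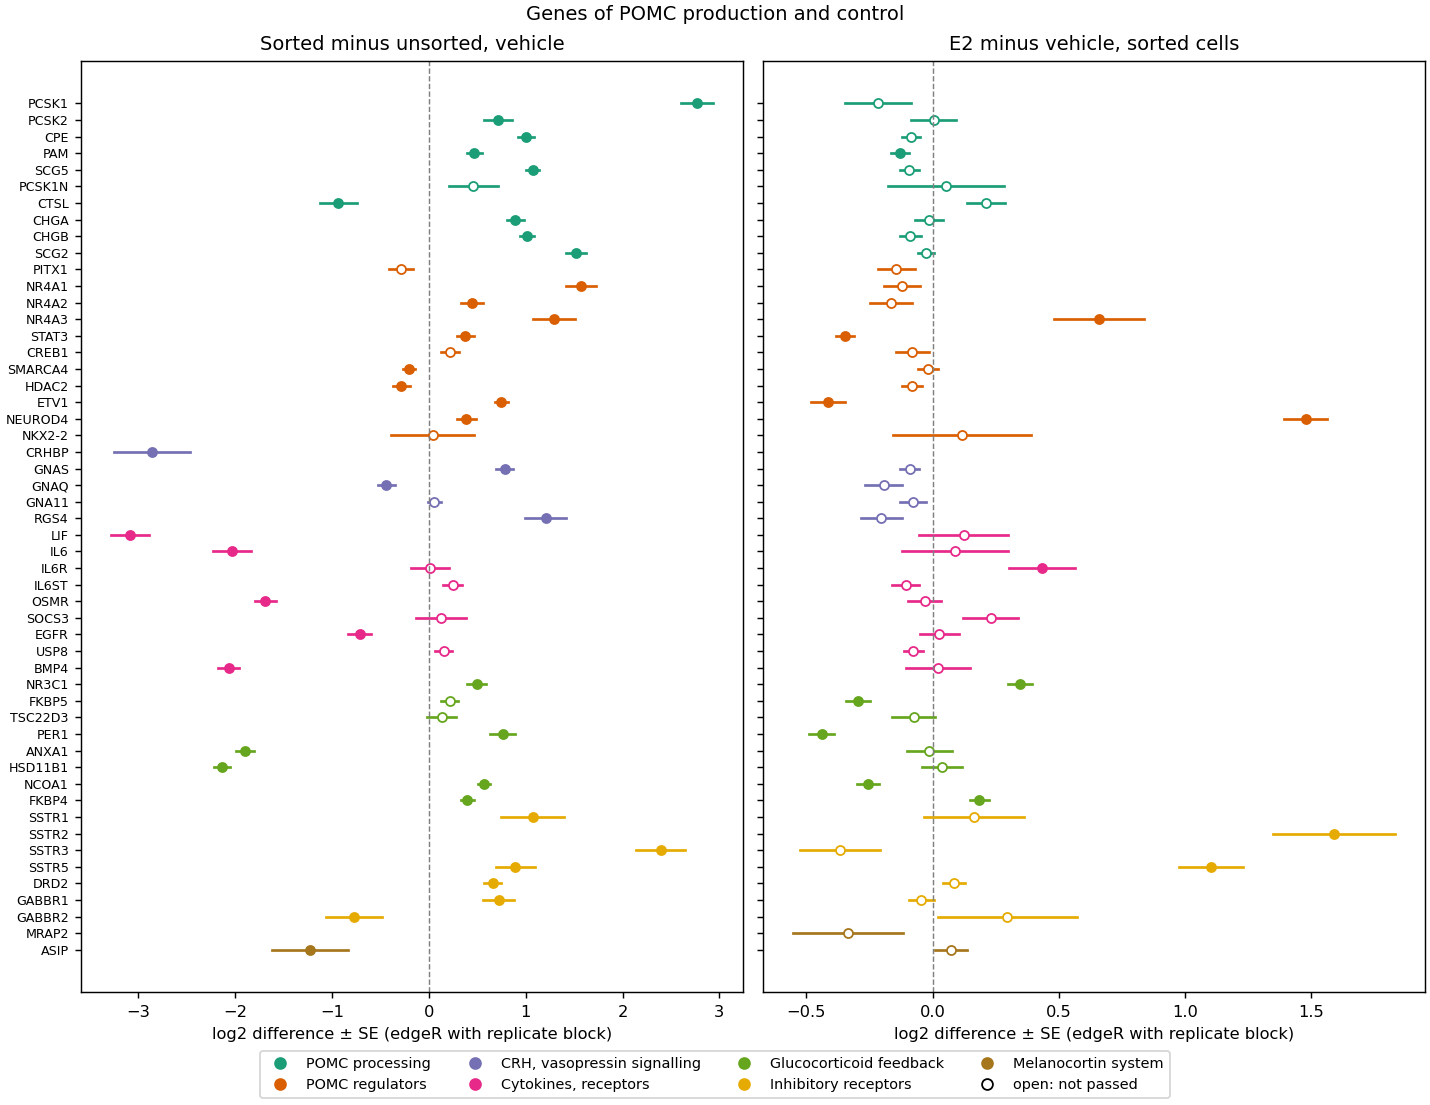
Log2 differences ± SE from edgeR with the replicate block for 52 genes of POMC processing, transcription, receptors and feedback, sorted minus unsorted with vehicle (left) and E2 minus vehicle in sorted cells (right). Filled points passed an adjusted p of 0.05, and a gene without a point missed the count filter. PCSK1 lies farthest to the right of the sort panel and NEUROD4, SSTR2 and SSTR5 to the right of the E2 panel.

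E2 changed few of these genes without the block and several with it. NEUROD4, a basic helix-loop-helix factor of the NEUROD1 family, was the 1 gene of the 7 lists called without the block. It ran from 42.3 over a median of 49.1 to 64.6 CPM in sorted E2 and from 12.4 over 17.7 to 27.1 CPM in sorted vehicle cells, with no overlap. In unsorted cells it ran from 20.6 over 25.6 to 35.8 CPM with E2 and from 9.27 over 15.1 to 16.8 CPM with vehicle, again with no overlap. It rose by 1.46 ± 0.19 in sorted cells (edgeR, adjusted p = 0.0010) and by 0.98 ± 0.18 in unsorted cells (adjusted p = 0.041), in 6 of 6 pairs each.

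With the block, NR3C1 rose by 0.34 ± 0.05 with E2 in sorted cells (adjusted p = 2.2e-05) and 0.16 ± 0.04 in unsorted cells (adjusted p = 0.030), against 0.35 ± 0.08 (adjusted p = 0.053) and 0.16 ± 0.11 (adjusted p = 1) without it. PCSK1 with the block was -0.22 ± 0.13 in sorted cells (adjusted p = 0.42) and -0.39 ± 0.10 in unsorted cells (adjusted p = 0.025). Without it PCSK1 was -0.22 ± 0.29 in sorted cells and -0.33 ± 0.18 in unsorted cells (edgeR, adjusted p = 1 for both). PITX1 did not pass in either (-0.16 ± 0.19 in sorted and 0.034 ± 0.26 in unsorted cells). SSTR2 and SSTR5, somatostatin receptor genes named after their values were seen, rose with the block by 1.59 ± 0.24 and 1.10 ± 0.13 in sorted cells and by 1.24 ± 0.28 and 0.89 ± 0.16 in unsorted cells (edgeR, adjusted p = 2.5e-06 to 0.0082), and did not pass without it (adjusted p = 0.16 to 1). SSTR2 was near the floor, with 3 to 22 reads in sorted and 1 to 23 in unsorted vehicle libraries. It had 0 reads in 1 unsorted E2 library, and rose in 5 of 6 unsorted pairs.

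By list, with the block, counts stand against 13.2% of all genes called in sorted and 5.24% in unsorted cells. E2 raised 2 and lowered 3 of 12 POMC regulators in sorted cells and raised 3 and lowered 1 in unsorted cells. It raised 2 and lowered 3 of 8 glucocorticoid feedback genes in sorted cells and raised 1 in unsorted cells. Inhibitory receptors had 2 of 7 higher in sorted and 3 of 7 in unsorted cells. POMC processing had 1 of 10 lower in each. The cytokine list had 1 of 9 higher in sorted cells and 0 called in unsorted cells, and the CRH and vasopressin and melanocortin lists had 0 called in either. Without the block the medians of the 7 lists lay between -0.12 and 0.11 in sorted cells, against -0.00039 over all genes, and between -0.078 and 0.38 in unsorted cells, against -0.010 over all genes. The highest in either was that of the inhibitory receptors. No listed gene passed the interaction test in either fit.

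Between E2 and vehicle CGA differed by -0.066 ± 0.19 in sorted and 0.11 ± 0.34 in unsorted cells, PRL by -0.072 ± 0.26 and 0.13 ± 0.23, and GH by -0.12 ± 0.63 and 0.092 ± 0.58, none of which passed (edgeR, adjusted p = 1). TSHB differed by -0.27 ± 0.51 and 0.12 ± 0.31 without the block, and in sorted cells it passed with it, at -0.30 ± 0.05 (adjusted p = 0.00012). Between sorted and unsorted cells PRL was higher by 0.64 ± 0.26 with E2 and 0.85 ± 0.24 with vehicle (adjusted p = 0.049 and 0.0093). CGA was higher by 2.56 ± 0.30 and 2.74 ± 0.28. GH, whose near-identical copies in sheep make its counts uncertain, was 0.65 ± 0.61 and 0.86 ± 0.62 higher and did not pass without the block.

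Across the 24 libraries, which share sort state, treatment, number and depth, the levels of the corticotrope genes went together as a description. Pearson's r of log2 CPM was 0.74 between POMC and TBX19, 0.66 between POMC and CRHR1, and 0.72 between TBX19 and CRHR1. Centred by group and depth set these were 0.56, 0.41 and 0.62. Among 11801 genes ranked by r with POMC, TBX19 stood in place 28 and CRHR1 in place 145.

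The 5 genes with the highest r to POMC were FAIM2 (0.87), TMEM176A (0.84), ESM1 (0.84), APOD (0.84) and MYPN (0.83). Centred by group and depth set their r lay between 0.73 and 0.84. Closest to TBX19 were SERTM1 (0.94), PRKCQ (0.90), B2M (0.88), MX2 (0.88) and CARTPT (0.87), with 0.84 to 0.91 after the same centring. As for POMC, none of the 10 passed an E2 comparison, with or without the block. Choice by r over sorted and unsorted libraries partly builds in a sort difference, so such a difference is no separate support. PRKCQ was 1.38 ± 0.37 higher in sorted cells with E2 and 1.53 ± 0.36 with vehicle (edgeR, adjusted p = 0.0065 and 0.0032). Without the block APOD and MX2 also passed with both, and FAIM2 and MYPN with vehicle only. In that fit TMEM176A, ESM1, SERTM1, B2M and CARTPT passed with neither. With the block all of the 10 were higher in sorted cells with both treatments, apart from CARTPT. It passed with vehicle only (edgeR, adjusted p = 0.013, and 0.17 with E2).

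The authors' deposited table for the sort in vehicle cells gives POMC at -0.89, TBX19 at -0.73 and CRHR1 at -0.84 on the log2 scale, as unsorted over sorted, with false discovery rates of 0.0034, 0.11 and 0.15. The authors' deposited tables for E2 over vehicle give POMC at -0.10 in sorted and 0.09 in unsorted cells, with false discovery rates of 1.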

How the data were processed

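Each library of the authors' deposited tables has a column of raw read counts per gene, with featureCounts 1.5.1 named as the counter per the submitters' processing notes. The aligner and genome build were not given in the sources used here, nor was the strand setting. Whether reads of overlapping genes on opposite strands were kept apart is therefore not known, and no coordinates are printed. The 12 vehicle libraries stand in 2 tables each, and 0 values differed between copies. The authors' deposited comparison tables hold log2 fold changes, a signed fold change, p-values and mean levels as log2 CPM from edgeR, per the file headers, and were used only for the values quoted from them.

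Each comparison was fitted in R 4.3.3 with edgeR 4.0.16: filterByExpr, TMM normalization, robust glmQLFit and the 2-sided quasi-likelihood F-test. P-values were adjusted by Benjamini-Hochberg across every gene in the fit, and a gene was called below 0.05. SEs are the log2 difference over the square root of F. The 4 comparisons of 2 groups used the 12 libraries concerned and the interaction all 24. Sort and E2 comparisons share libraries, so their values stand side by side only. The fits were run on simulated counts with differences added to genes picked at random. Those counts were drawn independently, with spreads estimated from these libraries. They cannot check whether the replicate block is right or whether the libraries are separate cultures. Single genes were compared by exact tests of log2(CPM + 0.1), read ratios of 2 genes likewise. Reads without molecular identifiers are not independent molecules, and intervals from counts alone would be too narrow.

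No label says that equal numbers mark a shared culture. In counts centred by group, libraries of equal number correlated at r = 0.290 to 0.859 in every pair of groups, and at 0.255 to 0.824 when also centred by depth set, and each library's best match was its own number in 6 of 6. The block on the replicate number rests on this check of the counts and not on a label.

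The 6 genes, the lists and the tests were chosen with earlier results of these data known. Named from the 7 pathway lists were up to 4 called genes with the smallest p in each 2-group comparison, with PCSK1, PITX1 and NR3C1 always named, and CGA, PRL, GH and TSHB beside POMC. Exceptions are marked in the text. A gene named by the rule is not reported here, although the list counts include it. The listed genes NEUROD1, INSM1, NEUROD2, GATA2, AVP, LIFR, NR3C2, MC1R and FOXL2 matched no row and are not analysed here. Alternatives were other scalings, no count filter, DESeq2 1.42.0, the replicate block, each depth set alone, a spread shared by all 4 groups, another pseudocount and leaving out each library. Ratios to other hormone genes, the comparison of depth sets, DESeq2 with the block and paired fits without 1 number were added after seeing the data. The transcript lengths needed to compare levels between genes, and sequences, were not used here.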

Additional observations from a re-analysis of the deposited data

Results flagged for a closer look

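Of 68 groups of 6 libraries, over 17 genes, 2 held a library far from the others by Dixon's criterion, which chance meets in about 1 of 20 groups. PAX7 stood at 0.904 CPM in unsorted E2 replicate 1, from 5 reads, where the next highest library of that group had 0.187 CPM. NR3C1 stood at 154 CPM in sorted vehicle replicate 4, where the next highest had 129 CPM.

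The POMC difference between sorted and unsorted vehicle cells was larger in replicates 1 to 3 than in replicates 4 to 6, by 0.74 ± 0.14 on the log2 scale (edgeR with the replicate block, adjusted p = 0.0035). The sets differ in depth, and depth and any other property of a set cannot be told apart.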

How the results depend on the processing

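Both counts of called genes in the sort comparisons stayed within 1.5 times under every alternative. The count for E2 in sorted cells, 196, was 1896 with the replicate block, 401 with DESeq2, 1347 with DESeq2 and the block, 22 in replicates 1 to 3, 563 there with the block, 1277 in replicates 4 to 6 with the block, and 125 to 208 with 1 library left out. In unsorted cells, 37 became 790 with the block, 124 with DESeq2, 587 with DESeq2 and the block, 73 with a spread from all 4 groups, 0 in replicates 1 to 3 (edgeR, 322 at an unadjusted p under 0.05), 67 there with the block, 20 in replicates 4 to 6, 730 there with the block, and 11 to 48 with 1 library left out. The interaction count, 4, was 70 with the block, 22 with DESeq2, 123 with DESeq2 and the block, 0 with no filter (441 unadjusted), 0 in replicates 1 to 3 (245 unadjusted), 0 in replicates 4 to 6 (402 unadjusted), 2 and 47 in these sets with the block, and 0 to 4 with 1 library left out.

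POMC, TBX19 and CRHR1 were higher in sorted cells under every alternative other than ratios to another hormone gene. Such a ratio is a different quantity, which also moves with the hormone gene. PRL, TSHB and CGA were each higher in the sorted library of 6 of 6 pairs with either treatment. For POMC with E2 (0.69), passing values were 0.69 with the block, 0.70 with DESeq2, 0.69 with DESeq2 and the block and 1.05 in replicates 1 to 3 with the block. Ratios to TSHB and CGA gave -0.052 and -1.97, and leaving out a library gave 0.54 to 0.83. For POMC with vehicle (0.90), 1.19 in replicates 1 to 3 and 0.47 in replicates 4 to 6 did not pass, ratios to PRL, TSHB and CGA gave -0.021, -0.37 and -1.999, and leaving out a library gave 0.62 to 1.04. TBX19 with E2 (0.94) did not pass at 0.66 in replicates 4 to 6 or as a ratio to PRL (0.26) or TSHB (0.11), was -1.80 as a ratio to CGA, and was 0.74 to 1.12 with a library left out. With vehicle (0.76) it passed at 0.72 with the block, 0.72 with DESeq2 and the block, 0.77 in replicates 1 to 3 with and without the block and 0.67 in replicates 4 to 6 with it, and ratios to PRL, TSHB and CGA gave -0.12, -0.47 and -2.10. CRHR1 with E2 (0.83) did not pass at 0.82 with no filter, 0.82 with DESeq2, 0.84 with a spread from all 4 groups, 0.61 in replicates 4 to 6, 0.59 there with the block, or as a ratio to PRL (0.29) or TSHB (0.15), was -1.77 as a ratio to CGA, and was 0.69 to 0.91 with a library left out. With vehicle (0.86) it passed at 0.78 with the block, 0.82 with DESeq2 and the block and 1.16 in replicates 1 to 3 with the block, and ratios to TSHB and CGA gave -0.33 and -1.95. The cause of the changes other than those of the ratios was not tested.

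The E2 differences of these genes were not called under any alternative, and several changed sign near 0. In sorted cells POMC was 0.074 in replicates 4 to 6 (0.00017 with the block) and -0.24 to 0.17 with a library left out, TBX19 was -0.046 in replicates 4 to 6 and -0.14 to 0.23, and CRHR1 was 0.080 with the block, 0.033 with DESeq2 and the block, 0.32 in replicates 4 to 6 (0.32 with the block) and -0.28 to 0.20. In unsorted cells POMC was -0.011 in replicates 1 to 3 with the block and -0.0027 to 0.25 with a library left out, TBX19 was 0.035 in replicates 4 to 6 with the block and -0.31 to 0.030, and CRHR1 was 0.069 with the block, 0.048 with DESeq2 and the block, 0.15 in replicates 4 to 6 (0.22 with the block) and -0.17 to 0.14. The interaction was -0.35 to 0.044 for POMC, -0.018 to 0.37 for TBX19 and -0.26 to 0.27 for CRHR1 with a library left out. In replicates 4 to 6 it was -0.040 for TBX19 (-0.022 with the block) and 0.14 for CRHR1 (0.077 with the block). Paired fits without 1 number gave -0.16 to 0.033 for POMC and -0.012 to 0.20 for CRHR1 in sorted cells, and -0.13 to 0.027 for TBX19 in unsorted cells. PAX7 in unsorted cells was -0.07 with a pseudocount of 0.1 and 0.025 with one of 1. The block changed no call of these genes beyond those given in the report. CRHR1 fell under the count filter in some fits, and DESeq2 gave no adjusted p for its interaction. AVPR1B, PAX7, CRHR1 and the listed gene SSTR2 are limited by depth.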
